A study of Danio rerio with 6 samples.

Results

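The SoxB1 genes *sox2* and *sox3* and the SoxE genes *sox9a*, *sox9b* and *sox10* were followed in RNA of sorted zebrafish cells. These 5 genes were taken by their Ensembl identifiers, each checked against its chromosome, out of 32266 genes with deposited counts. The study asked which genes depend on Dlx3b and Dlx4b, a pair of homeodomain proteins, in the otic-epibranchial progenitor domain (OEPD), the tissue from which the inner ear arises. Embryos of all samples were heterozygous for the *pax8*:DsRed transgene, came from the AB line and were dissociated in early somitogenesis. Sorting on DsRed collected cells in which the reporter was active, which the labels describe as OEPD and nephric anlagen. Of the 6 samples, 3 were wild-type with no injection described (labelled wt, here wt 1, wt 2 and wt 3). The other 3, from morphant embryos injected at the one-cell stage with antisense morpholinos against *dlx3b* and *dlx4b*, carry the genotype dlx3b/4b knockdown (labelled dlx3p4_MO, here MO 1, MO 2 and MO 3). Loss of Dlx3b/4b and the injection itself cannot be told apart in these counts. Samples are described as biological replicates, but no source says which embryos each came from. In bulk RNA of sorted cells, fewer cells of a type and less RNA per cell cannot be told apart.

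Sox proteins bind DNA through an HMG box and are grouped by the similarity of that domain. SoxB1 factors are known for keeping cells in a progenitor state, mainly in the neural plate and in sensory placodes, where they act before neurons and hair cells differentiate. SoxE factors are known from neural crest, cartilage and the ear. Zebrafish carry *sox9a* and *sox9b* in place of the single *Sox9* gene of mammals, and both are known to act in otic development.

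Total counts on genes lay between 23846555 and 28480101, and levels are given as CPM, that is, counts rescaled to one library size. A level of 0.105 to 0.126 CPM equals 3 counts, a limit that covers counting error only. With all 6 samples neither morpholino target was called as changed in RNA, which is no measure of its protein. For *dlx3b*, wt 1 to 3 had 48.0, 144.1 and 30.2 CPM, and MO 1 to 3 had 51.2, 78.7 and 179.8 CPM (adjusted p = 0.595 from edgeR). It was called in both directions when samples were left out, as higher in morphant samples without wt 2 (1.40, adjusted p = 0.0792, edgeR without the block) or without the samples numbered 2 (1.34, adjusted p = 0.0965, edgeR), and as lower without those numbered 3 (−0.37, adjusted p = 0.0982, edgeR). For *dlx4b*, wt 1 to 3 had 6.16, 25.2 and 3.84 CPM, and MO 1 to 3 had 4.26, 8.47 and 23.9 CPM (adjusted p = 0.959 from edgeR), and without the samples numbered 3 it was called as lower (−1.07, adjusted p = 0.00306, edgeR). Markers of the labelled tissue were looked up. *pax8*, whose reporter was sorted, had 260 ± 39.3 CPM in wild-type (SD, n = 3), and *pax2a*, a gene of otic and nephric cells, had 668 ± 69.9 CPM (SD, n = 3). Neither value can check OEPD identity, because the sort itself selects for *pax8* and nephric cells share *pax2a*. No unsorted cells were there to set beside them. Markers of blood and endothelium were present too, with a summed level over 4 genes of 2212 to 2918 CPM in wild-type and 1776 to 1878 CPM in morphant samples. wt 2 stood apart from wt 1 and wt 3, at Euclidean distances of 89.8 and 85.8 on log2 CPM, whereas those lay 68.0 apart. MO 1 lay 73.2 and 83.1 from MO 2 and MO 3, which were 62.8 apart. wt 3 was nearer to MO 2 (75.7) than to wt 2. The share of mitochondrial counts in wt 2 was 4.63%, against 2.02% to 3.09% in the other samples, and results are therefore also given without wt 2.

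Differential expression was tested over 17526 genes in a model of condition with the replicate number as a block (edgeR, quasi-likelihood). Log2 fold changes are morphant against wild-type, errors are standard errors (SE), and genes with a Benjamini-Hochberg adjusted p below 0.1 were called. All 5 Sox genes passed the filter on low counts, and 1, *sox9b*, was called, as lower in morphant samples. Among all tested genes 10.9% were called, 6.05% as lower and 4.85% as higher in morphant samples. The groups did not overlap for 1 of the 5 genes, again *sox9b*, and for 31.5% of all tested genes, 16.4% with every morphant sample lower and 15.1% with every morphant sample higher. Counts over 5 genes are too small to be read against these shares.

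*sox9b* (ENSDARG00000043923) lies on chromosome 3 of GRCz10 at 62341796 to 62348451 on the reverse strand, with 3511 bp of exons. In zebrafish it is known from the otic placode and the neural crest. Raw counts were 2986, 11702 and 2609 in wt 1, wt 2 and wt 3, whereas MO 1, MO 2 and MO 3 had 685, 919 and 1300. Scaled to library size, the wild-type values were 106.4, 437.4 and 89.5 CPM and the morphant values 26.8, 34.6 and 54.9 CPM. No morphant sample reached the lowest wild-type sample, which was 1.63 times the highest morphant one. The means were 211 ± 196 CPM in wild-type and 38.8 ± 14.5 CPM in morphant samples (SD, n = 3 each), a ratio of 5.45. *sox9b* fell by 2.11 on the log2 scale (SE 0.45, adjusted p = 0.0317 in edgeR).

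Much of the size of this fall came from wt 2, which had 4.47 times the mean CPM of wt 1 and wt 3. Against those samples alone the ratio of means was 2.53. Leaving out wt 2 gave a log2 fold change of −1.33 (adjusted p = 0.00771, edgeR without the block), so the gene was still called. No call was made without MO 1 (−2.24, adjusted p = 0.121, edgeR without the block) or without MO 2 (−2.37, adjusted p = 0.126, same model). The study picked *sox9b* for *in situ* hybridization among genes that fell in these counts, so the fall in the counts is not independent evidence for that choice. The hybridization itself was separate, on embryos of *dlx3b/4b* deletion carriers, and *sox9b* was reported as lost or strongly reduced in the OEPD of mutants. An unnamed gene on the opposite strand, ENSDARG00000105191, shares 213 exon bases with *sox9b* and had 1 to 11 counts per sample, and no source states whether counting used the strand.

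**Figure D1:**
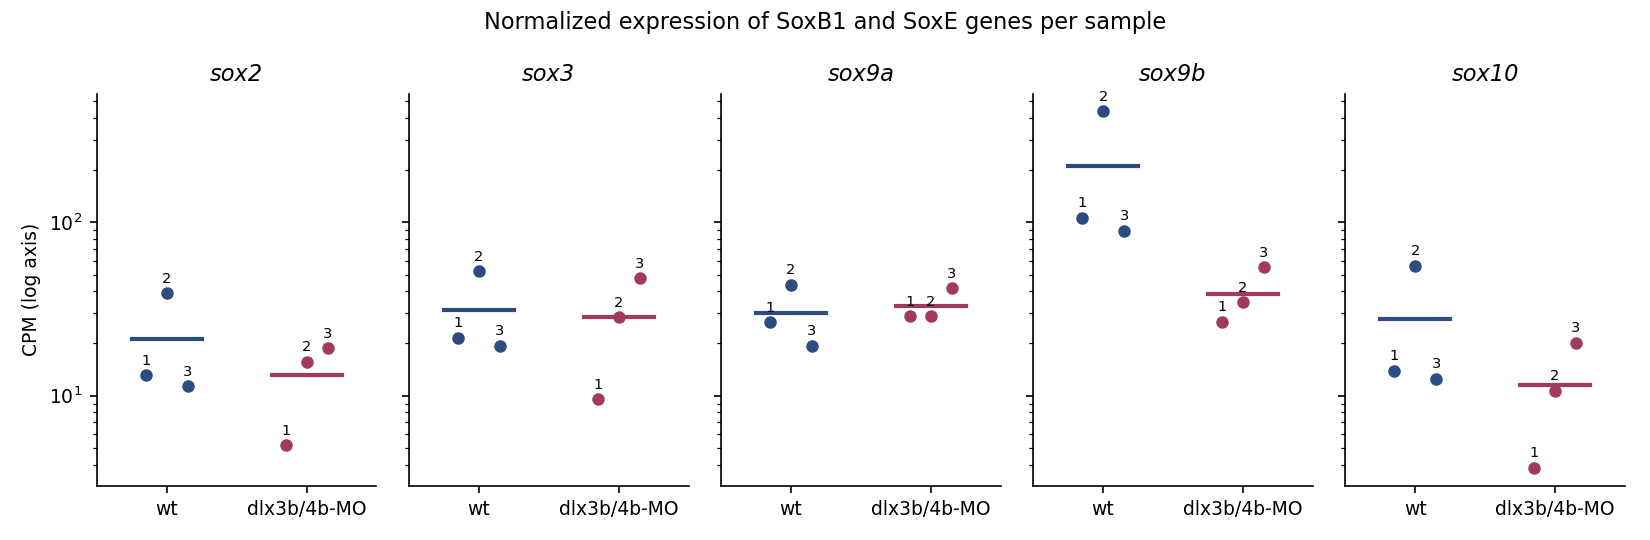
Normalized expression (CPM, log axis) of *sox2*, *sox3*, *sox9a*, *sox9b* and *sox10* in the 3 wild-type (wt) and 3 morphant (dlx3b/4b-MO) samples. Points are samples with their replicate number, and bars are group means. Among these 5 genes the groups were apart for *sox9b* alone, with 89.5 CPM in the lowest wild-type and 54.9 CPM in the highest morphant sample.

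*sox9a* (ENSDARG00000003293, chromosome 12, 1927596 to 1931236, reverse strand, 1798 bp of exons), the paralogue of *sox9b*, is known for cartilage formation in zebrafish. wt 1 to 3 held 746, 1165 and 566 of its counts, and MO 1 to 3 held 737, 763 and 990. This corresponds to 26.6, 43.5 and 19.4 CPM in the former and 28.8, 28.7 and 41.8 CPM in the latter. The groups overlapped, all morphant values lying within the wild-type range. The log2 fold change of 0.20 was below its SE of 0.27 (unadjusted p = 0.468, adjusted p = 0.705 in edgeR). Its sign depended on the samples, from −0.22 without the samples numbered 3 to 0.62 without those numbered 2.

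The paralogues were also compared within each sample, where library size cancels. For each *sox9a* count there were 4.00, 10.04 and 4.61 *sox9b* counts in wt 1, wt 2 and wt 3. The corresponding ratios for MO 1, MO 2 and MO 3 were 0.929, 1.20 and 1.31, all below the lowest wild-type ratio. On the log2 scale the ratio was 2.51 ± 0.72 in wild-type and 0.19 ± 0.26 in morphant samples (SD, n = 3 each), a difference of −2.33 (two-sided exact permutation test over 20 splits, p = 0.1, the smallest this design allows). Without wt 2 the difference was −1.92, and with any other single sample left out it lay between −2.58 and −2.18.

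*sox10* (ENSDARG00000077467, chromosome 3, 2013057 to 2022138, forward strand, 3205 bp of exons) is known as a neural crest factor and is also active in the otic epithelium. Its counts numbered 390, 1504 and 365 in wt 1 to 3, against 98, 283 and 478 in MO 1 to 3. As CPM these were 13.9, 56.2 and 12.5 in wild-type, then 3.83, 10.7 and 20.2 in the morphant group. MO 3 lay above wt 1 and wt 3, so the groups overlapped. The log2 fold change was −1.21 with an SE of 0.51 (unadjusted p = 0.0410, adjusted p = 0.199 in edgeR). It shrank to −0.19 without wt 2 (adjusted p = 0.849, edgeR without the block). Without the samples numbered 3 it was −2.13 and was called (adjusted p = 1.37e-08, edgeR with the block). That fit, which also called *sox2* and *sox3* below, held fewer samples but called more genes in total than the fit with all samples. Like the other fits without a numbered pair, it kept the block with few samples, which leaves little to estimate the spread from. The p-values of these fits therefore carry little weight, whether or not a gene was called.

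*sox2* (ENSDARG00000070913, chromosome 22, 37412978 to 37415049, reverse strand) has a single exon of 2072 bp and is known as a factor of neural and sensory progenitors. wt 1, wt 2 and wt 3 had 367, 1046 and 331 counts, or 13.1, 39.1 and 11.4 CPM. MO 1, MO 2 and MO 3 had 132, 416 and 444 counts, or 5.16, 15.7 and 18.7 CPM. MO 2 and MO 3 thus exceeded wt 1 and wt 3, and MO 1 was lowest of all. The log2 fold change was −0.66 with an SE of 0.37 (adjusted p = 0.325 in edgeR). It was 0.11 without wt 2 (adjusted p = 0.899, edgeR without the block), and −1.30 and called without the samples numbered 3 (adjusted p = 1.09e-05, edgeR with the block). *sox2* lies within the span of the noncoding gene *sox2ot*, which shares 0 exon bases with it and had 7 to 24 counts per sample.

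*sox3* (ENSDARG00000053569, chromosome 14, 32402387 to 32404150, reverse strand, a single exon of 1764 bp) is known from the preplacodal and epibranchial ectoderm and the neural plate. wt 1, wt 2 and wt 3 had 607, 1401 and 567 counts, or 21.6, 52.4 and 19.5 CPM. MO 1, MO 2 and MO 3 had 244, 755 and 1127 counts, or 9.53, 28.4 and 47.6 CPM. MO 2 and MO 3 lay within the wild-type range and MO 1 below it. The log2 fold change of −0.27 was below its SE of 0.40 (adjusted p = 0.741 in edgeR). It turned to 0.47 without wt 2 (adjusted p = 0.586, edgeR without the block), and was −0.996 and called without the samples numbered 3 (adjusted p = 5.31e-05, edgeR with the block).

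Within a sample, *sox2* had fewer counts than *sox3* everywhere. The log2 ratio of *sox2* to *sox3* was −0.73, −0.42 and −0.78 in wt 1 to 3, whereas MO 1 to 3 had −0.88, −0.86 and −1.34. The groups did not overlap here either, although the lowest wild-type and the highest morphant sample were 0.084 apart. The difference was −0.39 (two-sided exact permutation test over 20 splits, p = 0.1, the smallest this design allows). It was −0.28 without wt 2 and −0.23 without MO 3.

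Levels of different genes were compared per kilobase of exon. In wild-type samples *sox9b* had the highest level, 60.1 ± 55.9 CPM per kilobase (SD, n = 3), and was first in each of the 3 samples. *sox3* (17.7 ± 10.4), *sox9a* (16.6 ± 6.89), *sox2* (10.2 ± 7.50) and *sox10* (8.59 ± 7.75 CPM per kilobase, SD, n = 3) followed. Of these, *sox3* and *sox9a* changed places between samples, whereas *sox2* stood above *sox10* and below the rest in each of them. In morphant samples the order by mean level was *sox9a* (18.4 ± 4.19), *sox3* (16.2 ± 10.8), *sox9b* (11.04 ± 4.14), *sox2* (6.37 ± 3.44) and *sox10* (3.61 ± 2.56 CPM per kilobase, SD, n = 3). The spreads of neighbours in this order overlapped, and the first place was held by *sox9a* in MO 1 and by *sox3* in MO 2 and MO 3. *sox9b* made up 44.6%, 58.0% and 45.0% of the summed level of the 5 genes in wt 1 to 3, and 23.3%, 18.7% and 19.3% of it in MO 1 to 3.

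The 5 genes also varied within the groups. Each was higher in wt 2 than in wt 1 and wt 3, from 1.89 times the mean of those for *sox9a* to 4.47 times for *sox9b*. On log2 CPM this excess was larger than in 93.3% of all tested genes for *sox9a* and in 97.1% to 99.7% for the other 4. In MO 1, *sox2*, *sox3* and *sox10* were at 0.300, 0.251 and 0.248 of the mean of MO 2 and MO 3, and 1.06% to 1.63% of the tested genes were lower there by this measure. *sox9b* was at 0.598 and *sox9a* at 0.816, with nearly the same CPM in MO 1 and MO 2 for *sox9a*. The SD within the morphant group was above that of 97.0% to 98.6% of tested genes for *sox2*, *sox3* and *sox10*, but above that of 69.5% for *sox9a* and 85.2% for *sox9b*.

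**Figure D2:**
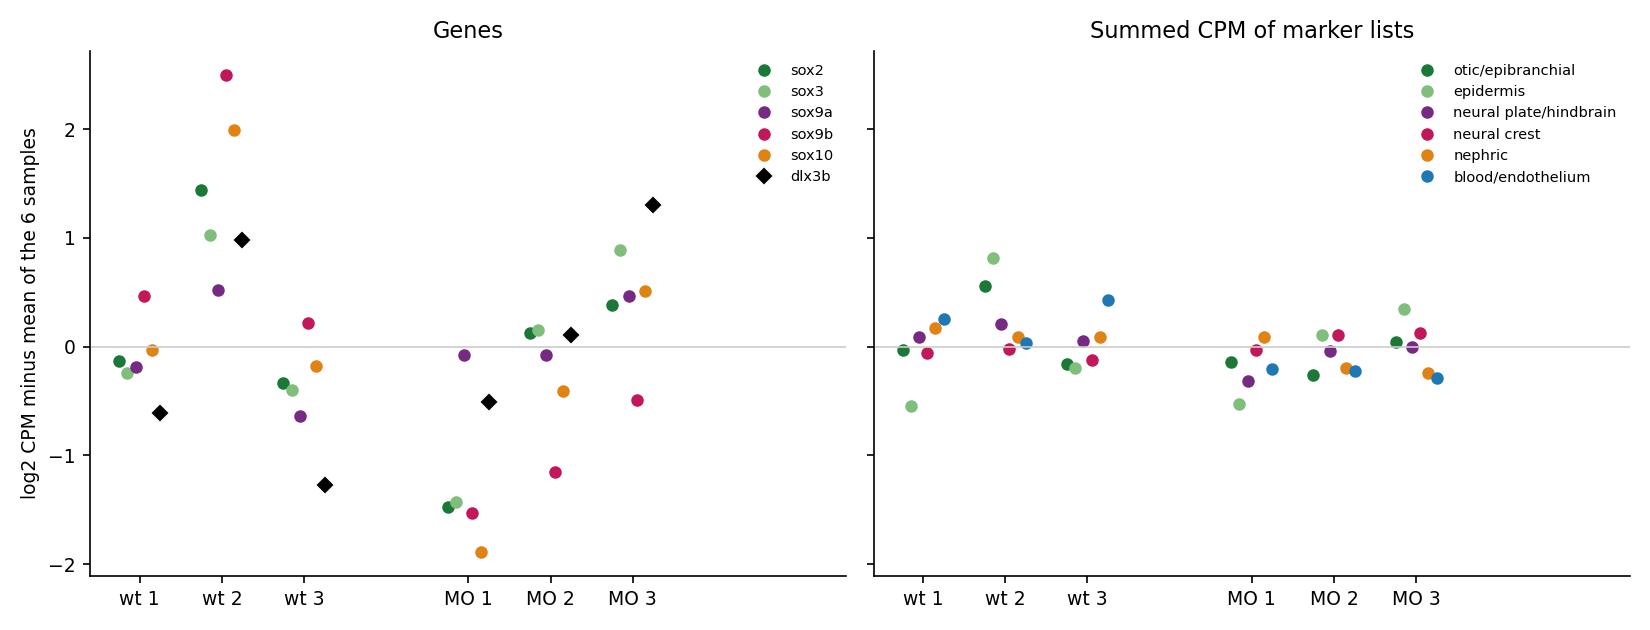
Log2 CPM of each sample minus the mean over the 6 samples, for the 5 Sox genes and *dlx3b* (left) and for the summed CPM of marker lists (right). Each point is 1 sample. All 5 Sox genes and *dlx3b* had their highest wild-type value in wt 2, and *sox2*, *sox3*, *sox9b* and *sox10* had their lowest value of all samples in MO 1.

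Some marker sums also stood out in these samples. The sum of 16 otic and epibranchial markers, which include *dlx3b*, was 2118 CPM in wt 2 against 1283 and 1403 CPM in the other wild-type samples, and that of 5 epidermal markers was 1953 CPM against 760 and 974 CPM. In MO 1 the epidermal sum was 772 CPM against 1200 and 1413 CPM in the other morphant samples. The sum of 12 neural plate and hindbrain markers was 224 CPM in MO 1 against 270 and 277 CPM. Of this sum *pou3f3b* alone held 143 CPM in MO 1, and 136 and 127 CPM in MO 2 and MO 3. The otic and epibranchial sum was not lowest in MO 1, with 1303 CPM against 1195 and 1478 CPM in MO 2 and MO 3. It included *pax8* and *pax2a*, also nephric markers, which had 415 and 601 CPM in MO 1. Those genes had 265 and 523 CPM in MO 2, and 322 and 545 CPM in MO 3. Apart from *pax8*, *pax2a*, *fgf24* and *six1b*, every listed otic gene had its lowest morphant value in MO 1. *eya1*, for example, had 33.9 CPM there against 49.3 and 75.4 CPM. The sum of 13 neural crest markers lay between 406 and 435 CPM in wild-type and between 432 and 482 CPM in morphant samples. Within it *tfap2a*, also an otic marker, had means of 144 CPM in wild-type and 87.9 CPM in morphant samples. *snai2* had 101 and 160 CPM, so large parts of this sum moved in opposite directions. *foxd3*, a defining neural crest gene, was listed at 0 counts in all 6 samples, for a reason that was not tested. Other crest genes of the list were counted, such as *crestin* with 79 to 148 counts in wild-type and 77 to 100 in morphant samples. The part of these cell types in the Sox values was not tested.

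**Figure D3:**
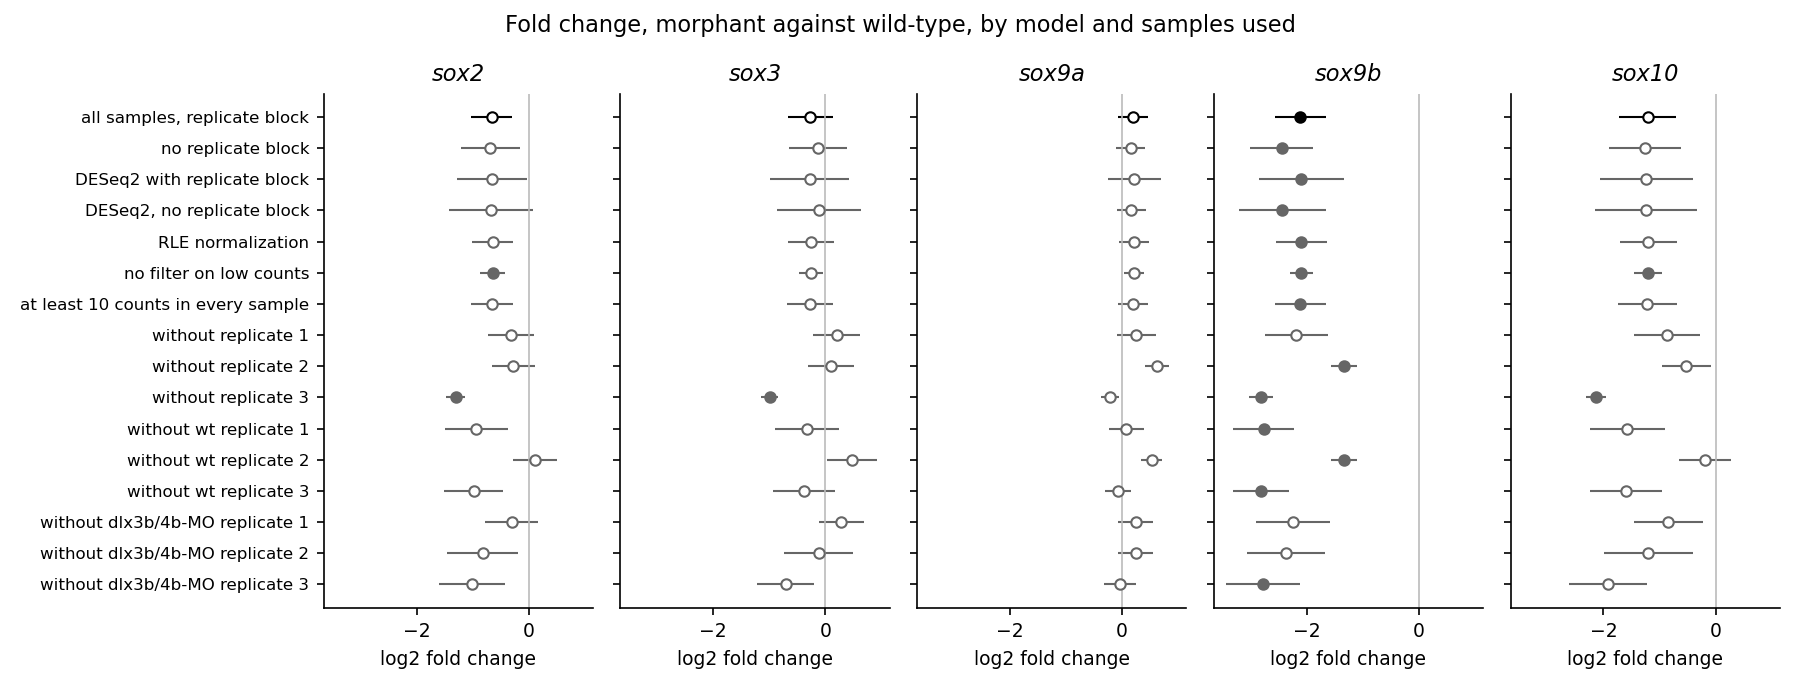
Log2 fold changes (morphant against wild-type) of the 5 Sox genes in each model and set of samples, with standard errors as bars. Filled points have an adjusted p below 0.1. Points for *sox9b* stay between −2.82 and −1.33, whereas those for *sox2*, *sox3* and *sox9a* fall on both sides of 0.

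Genes with the most similar pattern were sought among 11392 others with a mean count above 100, by the root-mean-square difference of centred log2 CPM over the 6 samples. Among the 5 genes themselves *sox2* and *sox3* were closest, 0.27 apart, followed by *sox2* and *sox10* at 0.36, and *sox9a* and *sox9b* were furthest apart at 1.24. The gene most like *sox9b* was *zgc:194210* (0.21 apart), with 36.8, 183 and 31.8 CPM in wt 1 to 3, and with 8.20, 12.7 and 26.7 CPM in MO 1 to 3. Next was *cdr2l* (0.22 apart), with 13.8, 37.04 and 10.5 CPM in wt 1 to 3, and with 2.54, 4.18 and 5.24 CPM in MO 1 to 3. Both therefore had the peak in wt 2 and the low morphant values of *sox9b*. The pair most like *sox2* was a gene named *tagln* (ENSDARG00000033466, 0.13 apart) and *epcam* (0.14 apart), which encodes an epithelial adhesion molecule. *sox3* was most like *dennd2d* (0.096 apart) and *isl1* (0.18 apart), a homeobox gene of sensory and motor neurons. *sox10* was most like the unnamed ENSDARG00000097832 (0.21 apart) and *prdm12* (0.23 apart), and *sox9a* was most like *mcrip2* and *ptgdsb.1* (both 0.15 apart).

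The other Sox genes showed changes in both directions. Of 22 identifiers matched to 21 Sox symbols, 18 were tested, of which 5 fell and 1 rose, and without wt 2 these counts were 3 and 1. The shares over all tested genes were 6.05% lower and 4.85% higher, and they serve as the background of each list counted with all samples. Counts without wt 2, here and for the lists below, come from a different fit. The share for that fit is not given, so those counts cannot be set against these shares. Their median log2 fold change was −0.28, against −0.01 for all tested genes. Within SoxB1, *sox1a*, a gene of neural progenitors, had 224, 301 and 251 counts in wt 1 to 3, then 62, 126 and 143 in MO 1 to 3, with no overlap, and fell by 1.14 on the log2 scale (adjusted p = 0.0405 in edgeR). Its paralogue *sox1b* had 138, 331 and 194 counts in wt 1 to 3, then 45, 145 and 131 in MO 1 to 3, with overlapping groups, and fell by 0.96 (adjusted p = 0.0791 in edgeR). *sox1a* was not called without wt 1, wt 2, MO 1 or MO 2 (adjusted p = 0.109 to 0.162, edgeR without the block). *sox1b* was not called without any one of the 6 samples (−1.16 to −0.44, adjusted p = 0.194 to 0.565, same model). The remaining SoxB1 genes *sox19a* and *sox19b* had log2 fold changes of 0.11 and 0.03 (adjusted p = 0.848 and 0.969 in edgeR), and the sign of each changed when samples were left out.

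Within SoxE, *sox8b* was low and had its highest value in wt 2, like *sox9b*. wt 1 to 3 had 30, 137 and 34 of its counts, and MO 1 to 3 had 2, 24 and 17, with no overlap. It fell by 2.07 on the log2 scale with an SE of 0.55 (adjusted p = 0.0641 in edgeR). Any single sample left out ended the call (adjusted p = 0.110 to 0.451, edgeR without the block), and without wt 2 the value was −0.97. *sox8a* had at most 5 counts in a sample and was not tested.

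The SoxF genes, known from blood vessel and blood progenitors, included a fall that held without any single sample. *sox7* had 155, 153 and 185 CPM in wt 1 to 3, then 93.9, 98.6 and 110 CPM in MO 1 to 3, with no overlap. It fell by 0.70 on the log2 scale with an SE of 0.095 (adjusted p = 0.00684 in edgeR) and was called in 14 of 15 other fits, among them all 6 that left out 1 sample. *sox18* had 12.5, 11.2 and 10.9 CPM in wt 1 to 3, then 5.27, 7.16 and 8.53 CPM in MO 1 to 3, and fell by 0.74 (adjusted p = 0.0849 in edgeR). It was not called without wt 1, MO 1 or MO 2 (adjusted p = 0.154 to 0.161, edgeR without the block). Of 4 tested blood and endothelium markers 2 fell with all samples (6.05% of all tested genes), and 4 did without wt 2, a fit whose share is not given. The blood gene *gata1a* had 349 ± 48.4 CPM in wild-type and 165 ± 32.8 CPM in morphant samples (SD, n = 3 each) and fell by 1.09 on the log2 scale (adjusted p = 0.00542 in edgeR). *lmo2*, a gene of blood and vessel progenitors, fell by 0.41 (adjusted p = 0.0580 in edgeR), and had −0.40, −0.41 and −0.38 without wt 1, MO 2 and MO 3, where it was not called (adjusted p = 0.110 to 0.113, edgeR without the block). The part of these cells in the SoxF values was not tested. *sox17* had 43 to 90 counts in wild-type and 35 to 54 in morphant samples (adjusted p = 0.699 in edgeR).

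Within SoxD, *sox5*, known as a partner of Sox9 in mammalian cartilage, rose. It had 33.7, 32.7 and 31.6 CPM in wt 1 to 3, then 46.5, 48.7 and 45.5 CPM in MO 1 to 3, a log2 fold change of 0.52 with an SE of 0.11 (adjusted p = 0.0331 in edgeR). The groups were apart, and the gene was called in 13 of 15 other fits. *sox13* had a log2 fold change of −0.88 (adjusted p = 0.105 in edgeR), which was −0.44 without wt 2. It was called in 3 of 15 other fits, by DESeq2 with the block (adjusted p = 0.0136), with no filter on low counts (adjusted p = 0.000568, edgeR) and without the samples numbered 3 (−1.35, adjusted p = 1.45e-06, edgeR). Of these, the call with no filter and the call without the samples numbered 3 carry little weight. *sox6* had a log2 fold change of 0.11 (adjusted p = 0.868 in edgeR). The SoxC genes, expressed widely in progenitors, had log2 fold changes of −0.48 for *sox4a* (ENSDARG00000004588), −0.35 for *sox4b*, −0.26 for *sox11a*, 0.23 for *sox11b* and −0.15 for *sox12*, with adjusted p from 0.111 to 0.897 in edgeR. *sox4a* was called without wt 2 (−0.66, adjusted p = 0.0100) and *sox11a* without wt 3 (−0.39, adjusted p = 0.0744, both edgeR without the block). A second identifier named *sox4a* was listed at 0 counts. Of the SoxB2 genes, *sox21a* had −0.21 and *sox21b* 0.35 (adjusted p = 0.811 and 0.545 in edgeR). *sox14* and *sox32* were too low to be tested.

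**Figure D4:**
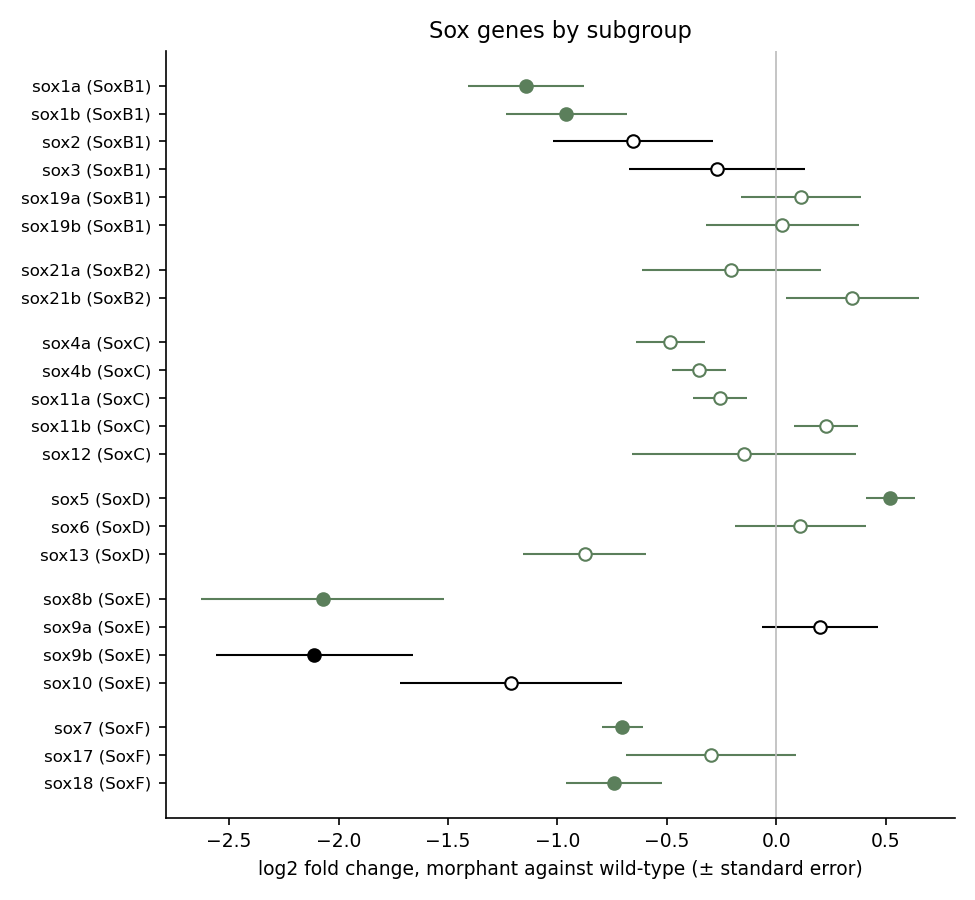
Log2 fold changes (morphant against wild-type) with standard errors for the tested Sox genes, ordered by subgroup. Black marks the 5 genes described in full, and filled points have an adjusted p below 0.1. *sox9b* and *sox8b* lie at −2.11 and −2.07, and *sox5*, at 0.52, is the tested Sox gene that rose.

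Cartilage matrix genes, several of which Sox9 activates in mammals, were followed as a list of 10. Of the 8 tested, 3 fell and 0 rose (6.05% and 4.85% of all tested genes), with a median log2 fold change of −0.32. Without wt 2, 2 fell and the median was −0.12. *col11a1a*, a fibrillar collagen gene, had 35.5, 80.6 and 29.2 CPM in wt 1 to 3, then 6.72, 22.6 and 15.2 CPM in MO 1 to 3, with no overlap. It fell by 1.72 on the log2 scale with an SE of 0.24 (adjusted p = 0.00755 in edgeR), was at −1.12 without wt 2, and was not called without MO 1 or MO 3 (adjusted p = 0.122 to 0.135, edgeR without the block). *hapln1b*, which encodes a matrix link protein, had 84.8, 90.8 and 86.1 CPM in wt 1 to 3, then 65.4, 68.8 and 57.9 CPM in MO 1 to 3, and fell by 0.45 (adjusted p = 0.0412 in edgeR). *col9a1a*, another collagen gene, had 30, 72 and 27 counts in wt 1 to 3, then 3, 20 and 2 in MO 1 to 3, and fell by 2.56 (adjusted p = 0.0331 in edgeR). Its value ranged from −1.60 without wt 2 to −3.88 without MO 2, and of the single samples left out, MO 2 alone kept its call (adjusted p otherwise 0.104 to 0.273, edgeR without the block). *col2a1a*, the best known Sox9 target of mammals, had 487, 835 and 551 counts in wt 1 to 3, then 258, 834 and 407 in MO 1 to 3 (adjusted p = 0.360 in edgeR). Counts of 0 to 9 were found for *matn1* and *acana*, which were not tested.

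Among 15 tested otic and epibranchial markers, 3 fell and 0 rose (6.05% and 4.85% of all tested genes), with a median log2 fold change of −0.44. Without wt 2 the counts were 3 and 2 and the median was −0.25, and *dlx3b* was among those that rose. The list holds the knockdown targets *dlx3b* and *dlx4b*, and also *stc2a*, which the study had reported as lower from these same counts. Its counts can therefore not be read against the shares of all tested genes. *tbx2b*, a T-box gene, had 57.5, 158 and 48.4 CPM in wt 1 to 3, then 15.04, 18.7 and 32.0 CPM in MO 1 to 3. It fell by 1.87 on the log2 scale (adjusted p = 0.0266 in edgeR), but was not called without MO 1 or MO 2 (adjusted p = 0.106 to 0.115, edgeR without the block). *stc2a*, which encodes a secreted glycoprotein, fell by 4.19 (adjusted p = 0.00755 in edgeR). *tfap2a*, shared with the neural crest list, fell by 0.76 (adjusted p = 0.0271 in edgeR), but was not called without wt 1 or MO 2 (adjusted p = 0.114 to 0.117, edgeR without the block). As in *sox9b*, the values of *tbx2b* and *stc2a* were highest in wt 2, and without it the log2 fold changes were −1.27 and −3.22, both still called. The study chose *stc2a*, *zgc:194210* and *cdr2l* for follow-up with these counts in view, so their counts are not independent evidence. Its *in situ* hybridization was separate, on embryos of *dlx3b/4b* deletion carriers, and reported these genes as lost or strongly reduced in mutants.

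Of 12 tested neural crest markers, 3 rose and 1, *tfap2a*, fell (4.85% and 6.05% of all tested genes). Their median log2 fold change was 0.08, but single genes lay between −0.94 and 1.52, so the median does not show that they moved little. Without wt 2 the counts were 2 and 1 and the median was 0.29. *pax3a* had 8.62, 8.04 and 6.28 CPM in wt 1 to 3, then 19.5, 23.1 and 22.97 CPM in MO 1 to 3, and rose by 1.52 on the log2 scale (adjusted p = 0.00442 in edgeR). *snai2* and *twist1a*, transcription factors known from crest and mesoderm, rose by 0.66 each (adjusted p = 0.0173 and 0.0877 in edgeR). Of the single samples left out, wt 1 alone kept the call of *twist1a* (adjusted p otherwise 0.109 to 0.209, edgeR without the block). *sox9b*, also known from the crest, fell, and *sox10* had a negative log2 fold change.

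Of 11 tested neural plate and hindbrain markers, 3 fell and 0 rose (6.05% and 4.85% of all tested genes), with a median log2 fold change of −0.0047 that turned to 0.21 without wt 2. Single genes lay between −1.36 and 0.65, so here too the median does not show that they moved little. The hindbrain gene *mafba* fell by 0.64 (adjusted p = 0.0317 in edgeR), but was not called without wt 3, MO 1 or MO 2 (adjusted p = 0.126 to 0.162, edgeR without the block). *pou3f3b* fell by 0.39 (adjusted p = 0.0501 in edgeR). The Notch target *her4.1*, whose near-identical copies make its counts uncertain, fell by 1.36 (adjusted p = 0.0664 in edgeR). It was not called without wt 2 or any morphant sample (adjusted p = 0.162 to 0.246, edgeR without the block), and was at −0.64 without wt 2.

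The remaining lists mark nephric cells, which the labels name among the sorted cells, and other cells that the sort could hold. Of 8 tested nephric markers, with sums of 2649 to 2816 CPM in wild-type and 2108 to 2655 CPM in morphant samples, *cdh17* fell by 1.14, *hnf1bb* fell by 0.58 and *osr1* rose by 0.76 (adjusted p = 0.00442, 0.0405 and 0.00839 in edgeR). *hnf1bb* was not called without wt 1, wt 3, MO 2 or MO 3 (adjusted p = 0.114 to 0.181, edgeR without the block). Of 8 tested genes of paraxial mesoderm and muscle, *tbx16* rose by 0.58 (adjusted p = 0.0744 in edgeR), and had 0.65, 0.42, 0.39 and 0.61 without wt 1, wt 2, MO 1 and MO 2, where it was not called (adjusted p = 0.149 to 0.283, edgeR without the block). Of 5 notochord markers 0 were called by edgeR with all samples, 1 had an unadjusted p below 0.05, and DESeq2 called 0 with the block and 1 without it. Without the samples numbered 3, edgeR called 1 notochord marker. Of 5 epidermis markers 0 were called by edgeR with all samples, 0 had an unadjusted p below 0.05, and DESeq2 called 0 in either model, whereas edgeR called 3 without the samples numbered 3. That fit called more genes in total than the fit with all samples, so its counts cannot be set against the shares above.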

How the data were processed

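RNA of FAC-sorted *pax8*:DsRed-positive cells was sequenced from 3 wild-type and 3 morphant samples. The authors deposited raw read counts per Ensembl gene, without normalization. According to the methods of the study, reads were aligned with GSNAP and uniquely aligned reads were counted with featureCounts. The labels name featureCounts 1.5.2 and GRCz10, whereas the methods name GRCz11. Coordinates are printed as deposited and called GRCz10 after the labels, with this conflict as a limit. Of 2768 name-table identifiers missing from the counts, 2768 lie above the highest counted one, so the counts rest on an older gene set than the table. The library protocols also differ between labels and methods, and it is not stated whether counting used the strand. There are 92 spike-in features with 0 counts, which were left out, and 0 unused sample columns.

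Counts were analysed with edgeR 4.0.16 in R 4.3.3 (TMM, filterByExpr, quasi-likelihood test, Benjamini-Hochberg over all tested genes, adjusted p below 0.1). The replicate number served as a block, because the study describes a design controlling for clutch, although no source assigns clutches to samples. In the model with the block, p-values rest on the spread left once differences between replicate numbers are removed. In the model lacking it they rest on the spread within groups. Either spread may be partly technical. CPM are scaled by TMM library sizes, and the SE is the fold change divided by the square root of F. Within-sample ratios added 0.5 to each count. Gene symbols were matched for 26433 identifiers, and paralogues sharing a name were told apart by chromosome in RefSeq (GRCz12tu). Of 103 listed symbols, 99 matched.

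Alternatives were a model lacking the block, DESeq2 1.42.0 in both forms, RLE, no filter, at least 10 counts in every sample, a threshold of 0.05, leaving out each numbered pair and, in the model lacking the block, each sample. The code was tested on simulated counts. The genes and lists were chosen with earlier results of these data known. Named genes are the 5 members, all tested Sox genes, called genes of each list (at most 4), the knockdown targets and the 2 genes of most similar pattern. *col2a1a*, *foxd3*, *crestin*, *eya1*, *fgf24*, *six1b* and the untested genes were named after their values were seen. Figures used matplotlib 3.10.9.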

Additional observations from a re-analysis of the deposited data

How the results depend on the processing

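With 3 samples per group, 1 library decided several values. In fits that left out a numbered pair or a sample, the log2 fold change ranged from −2.82 to −1.33 for *sox9b*, from −2.13 to −0.19 for *sox10*, from −1.30 to 0.11 for *sox2*, from −0.996 to 0.47 for *sox3* and from −0.22 to 0.62 for *sox9a*. *sox9b* was called in 12 of 15 other fits, the exceptions being those without the samples numbered 1 (adjusted p = 0.154, edgeR), without MO 1 and without MO 2. *sox2* and *sox10* were each called in 2, without the samples numbered 3 and with no filter on low counts (−0.65 and −1.20, adjusted p = 0.0491 and 0.000507, edgeR). *sox3* was called in 1, without the samples numbered 3, and *sox9a* in 0. With no filter the fold changes hardly moved, but the SE fell from 0.37 to 0.22 for *sox2* and from 0.51 to 0.25 for *sox10*. For *sox9b* it fell from 0.45 to 0.20, so calls of that fit carry little weight. P-values of the fits without a numbered pair carry little weight either, whether or not a gene was called. Both kinds of fit are counted in every tally over 15 other fits, including those of *sox9b*, *sox7*, *sox5* and *sox13*.

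Deviations from the group mean correlated between same-numbered samples with r = 0.16, 0.055 and −0.14 across genes, and wt 2 and wt 3 each correlated more with another number (0.22 and 0.14), so the samples share a number and are not shown to be paired. Without the replicate block *sox9b* had −2.45 (adjusted p = 0.0321, edgeR), no call of the 5 genes changed, *sox1b*, *sox8b* and *col9a1a* were not called and *sox4a* (ENSDARG00000004588) was (−0.50, adjusted p = 0.0937, edgeR). As differences within numbered pairs, the *sox9b* to *sox9a* and *sox2* to *sox3* ratios kept −2.33 and −0.39 (exact sign-flip test, p = 0.25, the smallest it allows).

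Signs also turned when samples were left out for *sox19a* (−0.34 to 0.59), *sox19b* (−0.48 to 0.58), *sox21a* (−0.69 to 0.46, and 0.015 and 0.026 in edgeR and DESeq2 lacking the block), *sox12* (−0.37 to 0.043), *sox6* (−0.20 to 0.46), *sox17* (−0.62 to 0.12), *dlx3b* (−0.37 to 1.40) and *dlx4b* (−1.07 to 1.29). Called genes numbered 1911, but 3074 in DESeq2 lacking the block, 997 at the 0.05 threshold, and between 185 (pair 1 left out) and 3955 (pair 3 left out), with 985, 932 and 1263 when MO 1, MO 2 or wt 1 was left out. Of the other Sox genes 6 were called, 3 at the 0.05 threshold and 0 to 9 with samples left out. Of the listed marker genes 18 were called, 28 with no filter and 7 to 32 with samples left out. Fits with samples left out hold fewer samples, and the cause of the other shifts was not tested.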
